A study of Oryza sativa with 4 samples.

Results

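Isolated peaks are regions of OsMADS27 pull-down that stand alone in the genome, with no other called peak nearby. They were chosen from 2 peak lists by 4 conditions. A replicate 1 peak and a replicate 2 peak had to lie on chromosomes 1 to 12 and share at least 50% of the length of the shorter peak. Neither was allowed another summit of its own list within 10 kb on either side. The pileup, which is the number of tags over the summit after scaling, had to be at least 100 in both lists, and the length had to be below 200 bp in at least 1 list. This gave 376 isolated pairs among 55253 shared pairs, or 0.681% of them (95% Wilson interval 0.615 to 0.753%). Of the 48151 shared pairs that met the same limits on chromosome, pileup and length, the other 47775 had a neighbour within 10 kb and are called crowded pairs here.

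All libraries came from regenerating young seedlings of Pusa Basmati 1 (PB1), an Indica rice cultivar. The plants overexpressed OsMADS27 with an N-terminal 3xMyc tag and were not treated. The pulled-down DNA, caught on Myc-Trap beads, gave 2 libraries, each set against an input library of sheared chromatin from plants of the same genotype. A library of untagged or wild-type plants was not analysed here, so the contrast is pull-down against input within 1 genotype, under overexpression. After filtering, 136923044 and 130482505 pulled-down tags and 131452322 and 127964706 input tags were left in replicates 1 and 2.

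OsMADS27 belongs to the MADS-box transcription factors, which bind DNA as dimers at short AT-rich motifs known as CArG boxes. It is a rice relative of Arabidopsis ANR1, a gene known for root responses to nitrate. In chromatin immunoprecipitation, fragments bound by the tagged protein are recovered and sequenced, and a peak is a position with more tags than input chromatin predicts. No genome of the build behind the lists was used here, so the regions were not assigned to genes and no sequence is shown. Positions below are those of the replicate 1 list. Fold enrichment is the authors' value, pileup plus 1 over local input background plus 1. Pileup and length chose the pairs, and fold enrichment, background and q come from the same contrast, so these are given as descriptions with no test.

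Enrichment at the isolated pairs was modest. The median fold enrichment was 1.76 in replicate 1, with quartiles of 1.53 and 2.02, and 1.77 in replicate 2, with quartiles of 1.51 and 2.07, and the folds ran from 1.16 to 3.59 and from 1.18 to 3.95. A fold of at least 2 in both lists was reached by 69 of 376 isolated pairs (18.4%, Wilson interval 14.8 to 22.6%). The share over all 54841 shared pairs of chromosomes 1 to 12 was 25.5%. A fold of at least 3 in both lists was reached by 3 isolated pairs, or 0.798%, and by 0.791% of all shared pairs. At the lower end, 66 isolated pairs (17.6%) had folds under 1.5 in both lists, close to the 16.8% of crowded pairs. The median summit carried 197 tags in replicate 1 and 192 tags in replicate 2.

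With all pileups pooled, the isolated pairs lay over more input tags than the genome-wide average, and over fewer than the crowded pairs. The pulled-down tags lay over a median of 106 input tags in replicate 1 and 102 in replicate 2, which is 6.45 and 6.38 times the genome-wide average of 16.4 and 16.0 tags. The crowded pairs had medians of 9.37 and 9.32 times the average, but also more pulled-down tags, 295 and 286 against 197 and 192. At equal pileup the isolated background was mostly the higher one. From a pileup of 350 to below 400 it was 17.1 and 17.7 times, against 13.6 and 13.6 at crowded pairs. From 250 to below 300 it was 9.31 against 9.37 in replicate 1, and 9.63 against 9.25 in replicate 2. The background was at least 5 times the average in both lists at 241 isolated pairs (64.1%) and at 84.3% of crowded pairs. It was at least 10 times at 78 isolated pairs (20.7%) and at 41.9% of crowded pairs. It was under 2 times the average in either list at 1 isolated pair, on chromosome 1 at 41107184. With a pileup of at least 100 and modest folds, a low background is hardly possible, so the limit on pileup bears on these shares directly. Among the 165 isolated shared pairs that missed the pileup limit, the median background was 1.95 and 1.94 times the average and the median fold 2.05 and 2.09. In 373 of the 376 isolated pairs (99.2%), the background was a whole number of input tags within 0.02 in both lists, as the input count over the summit itself would be. This held for 92.5% of the crowded pairs.

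**Figure D1:**
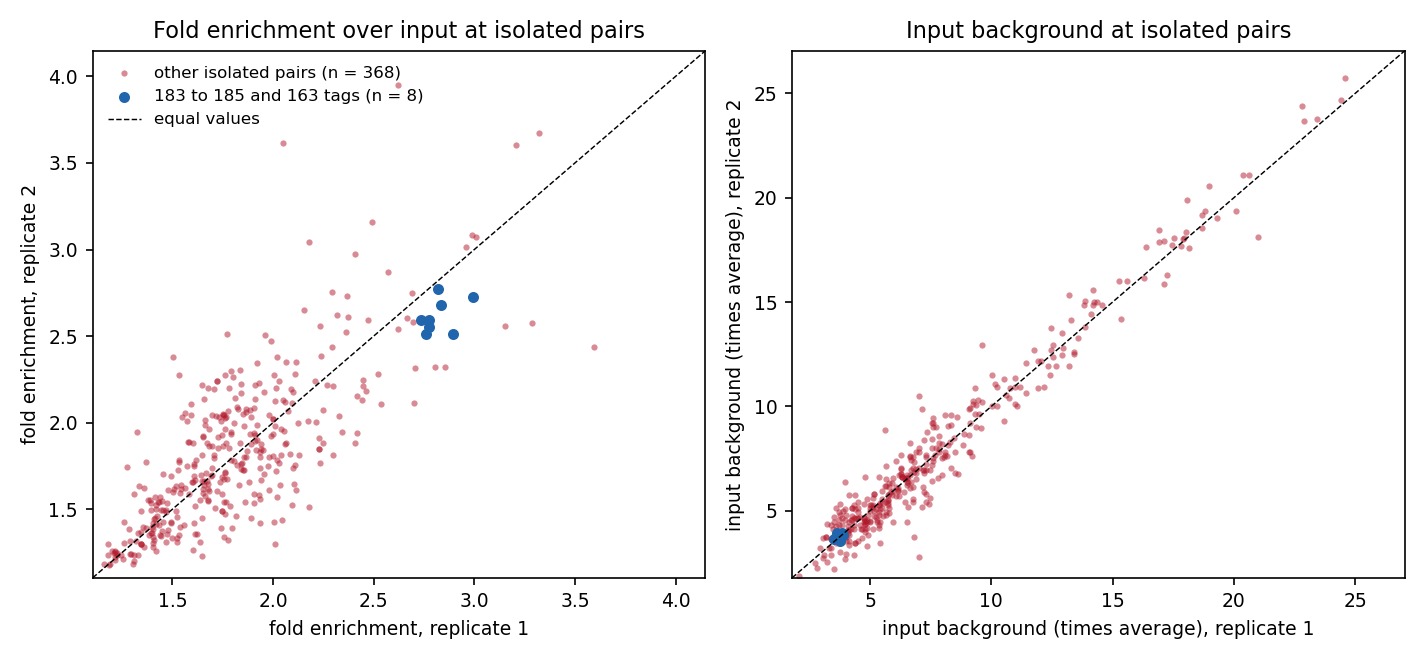
Each point is 1 of the 376 isolated pairs, with replicate 1 on the x axis and replicate 2 on the y axis. Fold enrichment (left) scatters around the line of equal values, input background in multiples of the genome-wide average (right) follows it closely, and the 8 pairs with 183 to 185 tags in replicate 1 and 163 tags in replicate 2 sit together at folds of 2.51 to 2.99.

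The lists agreed closely on tags and background and less on the fold. Across the isolated pairs, Spearman's rho between the lists was 0.96 for pulled-down tags, 0.94 for background and 0.76 for fold enrichment (a description across regions, which share their libraries). The crowded pairs gave 0.97, 0.97 and 0.84. The fold was higher in replicate 1 at 187 of 376 isolated pairs (49.7%), so neither list was systematically above the other at these pairs. At crowded pairs it was higher in replicate 1 at 42.7%, so replicate 2 had the higher fold more often there. Summits lay a median of 2 bp apart, 306 isolated pairs (81.4%) and 83.0% of crowded pairs had them within 10 bp, and 91 isolated pairs (24.2%) and 34.8% of crowded pairs had them on the same base. Noise was compared over the 360 isolated pairs whose summits were no more than 50 bp apart and whose background was whole. Relative to Poisson sampling, the variance of the tag difference between the lists was 0.507, and that of the input difference 0.791. Crowded pairs chosen in the same way gave 0.563 and 0.775, so these values are not particular to isolated pairs. The replicates thus differed by less than sampling noise, they count as 1 sample here, and both values are printed without an SD. How far the limit of 5 tags per position and the selection of shared peaks bear on this spread was not tested. The labels do not say whether the replicates came from separate plants or pull-downs.

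Of the 12 isolated pairs with the highest smaller-of-both fold, the first lay on chromosome 1 at 41107184 to 41107235. In replicate 1, 120 pulled-down tags (exact Poisson interval at 95%, 99.5 to 143) stood over 34.0 input tags, and in replicate 2, 115 (94.9 to 138) over 30.0. The fold enrichment came to 3.32 and 3.67, and the nearest other summit was 12964 bp away in both lists. The same pair also had the lowest background of all isolated pairs, at 2.07 and 1.88 times the average.

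The next lay on chromosome 3 at 24661112 to 24661197, with 156 tags (132 to 182) over 46.0 input tags in replicate 1 and 135 tags (113 to 160) over 36.0 in replicate 2. This gave folds of 3.21 and 3.61. Its nearest neighbour was 30389 bp away in replicate 1 and 104957 bp away in replicate 2, so the lists differed on where that neighbour was. The third pair with folds above 3 in both lists was on chromosome 11 at 25754704 to 25754761. It held 259 pulled-down tags in each list over 82.0 input tags in each, and its folds were 3.01 and 3.07. The 3 pairs were 86 bp long or shorter in replicate 1.

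On chromosome 8 at 779727 to 779876, 335 and 323 pulled-down tags stood over 107 and 102 input tags. The folds were 2.99 and 3.09, and the −log10 q of 56.6 and 58.9 was the highest of the 12. A pair on chromosome 7 at 8719552 to 8719610 had folds of 2.96 and 3.02, from 221 and 205 tags over 71.0 and 66.0 input tags. Over the 12 pairs, the nearest other summit, taken as the smaller of both lists, lay between 12092 and 36188 bp away.

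Lower in the 12 came chromosome 11 at 9955052 to 9955160 (folds 2.69 and 2.75) and chromosome 2 at 14085924 to 14086049 (2.67 and 2.60). These were 109 and 126 bp long in replicate 1. On chromosome 8, the region 28136517 to 28136641 had folds of 2.62 and 3.95. Its pulled-down tags were 160 and 144, while its input tags were 58.0 and 35.0, so the lists differed mainly in the input. The twelfth, on chromosome 2 at 27736883, was tied in its smaller-of-both fold (2.59) with chromosome 7 at 17992530, and was taken by its order in the list. All 12 lay on 6 chromosomes, and their −log10 q was at least 19.2 in both lists.

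The remaining 4 of the 12 had nearly the same tag numbers as each other. They lay on chromosome 1 at 7078293, chromosome 2 at 27736883, chromosome 7 at 9001637 and chromosome 11 at 23272210. Each held 183 to 185 pulled-down tags in replicate 1 and 163 in replicate 2. A search for all isolated pairs within 1 tag of 184 and 163, made after these values were seen, found 8 of them on 6 chromosomes. The other members were on chromosome 7 at 17992530, chromosome 8 at 5036451, chromosome 10 at 22542884 and chromosome 11 at 19646357. Input tags were close as well, 58 to 64 in replicate 1 and 57 to 63 in replicate 2, and folds were 2.73 to 2.99 and 2.51 to 2.77.

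The search started from 4 of the 12 pairs with the highest folds, so the high folds of the group follow from the search. Of the 21 isolated pairs with a fold of at least 2.5 in both lists, a limit chosen after the data were examined, 8 belonged to this group. That limit lies just below the lowest fold of the group (2.51), and the share of all shared pairs reaching it is not given here. Members of the group were 63 to 75 bp long in replicate 1, apart from 158 bp on chromosome 8, and 53 to 66 bp in replicate 2. Their nearest other summits, taken as the smaller of both lists, lay 10878 to 45467 bp away. The same tag numbers within 1 tag were also found at 30 crowded pairs, so 38 pairs on all 12 chromosomes shared them. Of those 30, 22 had a fold of at least 2.4 in both lists, and 12 had their nearest other summit within 3 bp of a distance of 113 bp. Whether the 38 loci are copies of a repeated sequence, with reads placed at each copy, was not tested. How many pairs would share these tag numbers by coincidence was not computed.

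Equal tag numbers were common in these lists: 300 of 376 isolated pairs (79.8%) and 87.1% of crowded pairs had the same pulled-down tags in both lists as at least 1 other shared pair. The share that would match by coincidence, among whole numbers of at most 500 tags, was not computed. Among the isolated pairs alone, 15 sets with 38 isolated pairs had the same pulled-down tags as each other in both lists. When the input tags had to match too, 3 sets with 7 isolated pairs were left. The first was on chromosome 1 at 2593221, chromosome 3 at 1455749 and chromosome 6 at 21562637, each with 146 and 141 pulled-down tags over 104 and 106 input tags and folds of 1.34 and 1.30. In the whole series 7 pairs had these 4 numbers. The second paired chromosome 4 at 17058892 with chromosome 8 at 23285431, at 130 and 127 tags, folds of 1.72 and 2.24 and lengths of 156 and 158 bp in replicate 1. The third paired chromosome 1 at 3332207 with chromosome 9 at 14055763, at 122 and 114 tags and folds of 2.23 and 1.85.

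Matches of all 4 numbers, pulled-down and input tags of both lists, with any other shared pair were rarer among isolated than among crowded pairs, by more than matches of the pulled-down tags alone. They were found at 22 of 376 isolated pairs (5.85%, Wilson interval 3.90 to 8.70%) and at 16617 of 47775 crowded pairs (34.8%, 34.4 to 35.2%). The share was lower among isolated pairs in every one of the 7 bands of pileup used. From a pileup of 150 to 199 it was 2.83% of 106 isolated pairs and 18.5% of 6610 crowded pairs. From 100 to 149 it was 9.43% of 106 and 12.6% of 4018, which the interval of the isolated share (5.21 to 16.5%) does not separate.

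At equal pileup, fold enrichment was lower at isolated than at crowded pairs. Over all pairs the medians were close, 1.76 and 1.77 at isolated pairs and 1.78 and 1.82 at crowded pairs. The mean difference over both lists, −0.0326, changed sign to 0.0029 with a pileup limit of 50 and to 0.0158 with only peaks of −log10 q of at least 5. The crowded pairs held more tags, with medians of 295 and 286, and folds are lower where tags are many. Within all 7 bands of pileup, the isolated median was below the crowded one in both lists, by 0.0474 to 0.392. From 100 to 149, the isolated pairs had median folds of 1.79 and 1.81 and the crowded pairs 1.97 and 1.99. From 350 to 399, the medians were 1.32 and 1.32 at 28 isolated pairs and 1.68 and 1.71 at 6550 crowded pairs. At a fixed pileup a lower fold is the same thing as more input tags, so this describes the input below isolated peaks as much as the pull-down. Quartiles overlapped in every band, the lists are not independent, and no test was made.

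**Figure D2:**
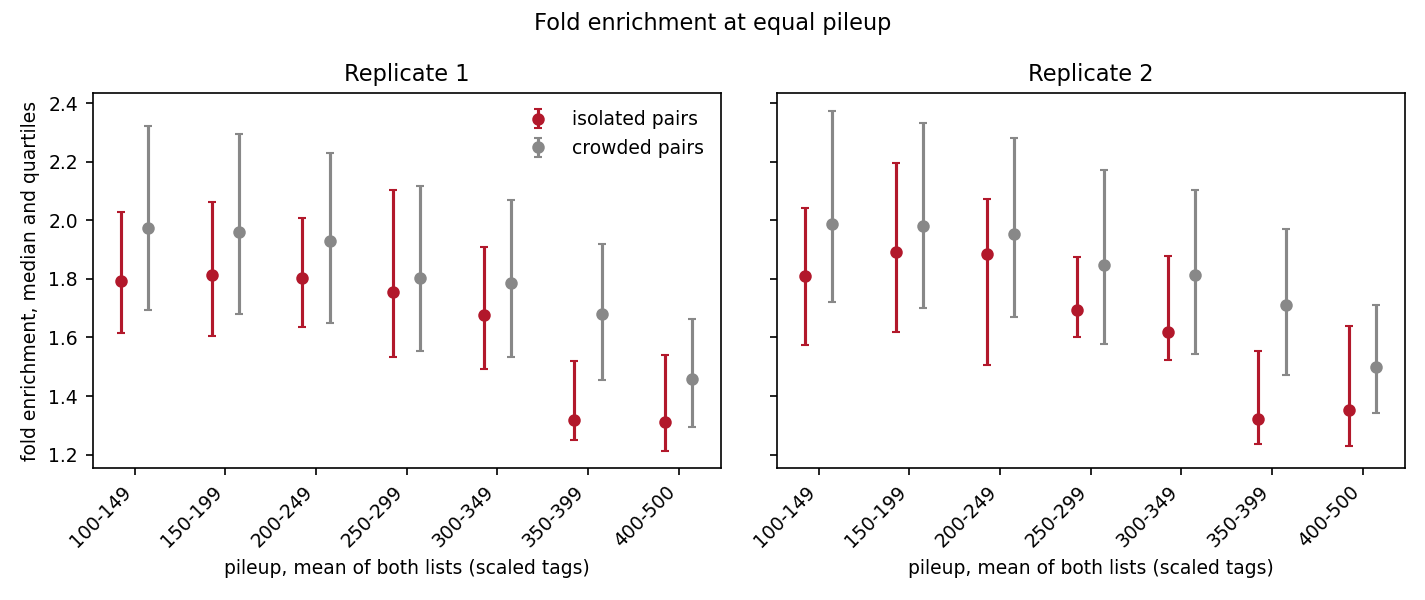
Points are median fold enrichment and bars run from the lower to the upper quartile, by band of pileup (mean of both lists, in scaled tags), for isolated pairs and crowded pairs. The isolated medians lie below the crowded ones in all 7 bands of both replicates, while the quartile ranges overlap.

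Isolated peaks were less often found in the other replicate. This measure did not enter the choice when peaks were taken from 1 list alone with the limits on distance, pileup and length. In replicate 1, 595 of 1018 isolated peaks had a partner in replicate 2 (58.4%, Wilson interval 55.4 to 61.4%), as did 47725 of 60347 crowded peaks (79.1%, 78.8 to 79.4%). In replicate 2, 608 of 1000 isolated peaks had a partner in replicate 1 (60.8%, 57.7 to 63.8%), as did 46804 of 60222 crowded peaks (77.7%, 77.4 to 78.0%). The intervals, which cover counting error only, did not overlap. The share was lower for isolated peaks in all 7 bands of pileup in both lists, although the intervals overlapped in some bands from a pileup of 250 upward. A partner is met by chance more easily where peaks are dense, and this was not subtracted.

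A peak alone in 1 list was often not alone in the other. Of the 595 partnered isolated peaks of replicate 1, 212 had a partner with a neighbour of its own within 10 kb, and 12 had one with a pileup under 100. The remaining 371 were among the 376 isolated pairs. In replicate 2 the numbers were 224, 12 and 372 of 608. The median folds of isolated peaks with and without a partner were 1.79 and 1.74 in replicate 1 and 1.77 and 1.79 in replicate 2, so the pooled fold hardly differed by sharing. Their pileups differed more, with medians of 190 and 157 in replicate 1 and 192 and 159 in replicate 2. Within bands of pileup in replicate 1, partnered peaks had the higher median fold below 350 (1.90 and 1.79 in the band from 100). From 350 upward they had the lower one (1.40 and 1.58 in the band from 350). In replicate 2 the direction changed between bands, with 1.81 and 1.57 in the band from 200 and 1.44 and 1.49 in the band from 350.

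**Figure D3:**
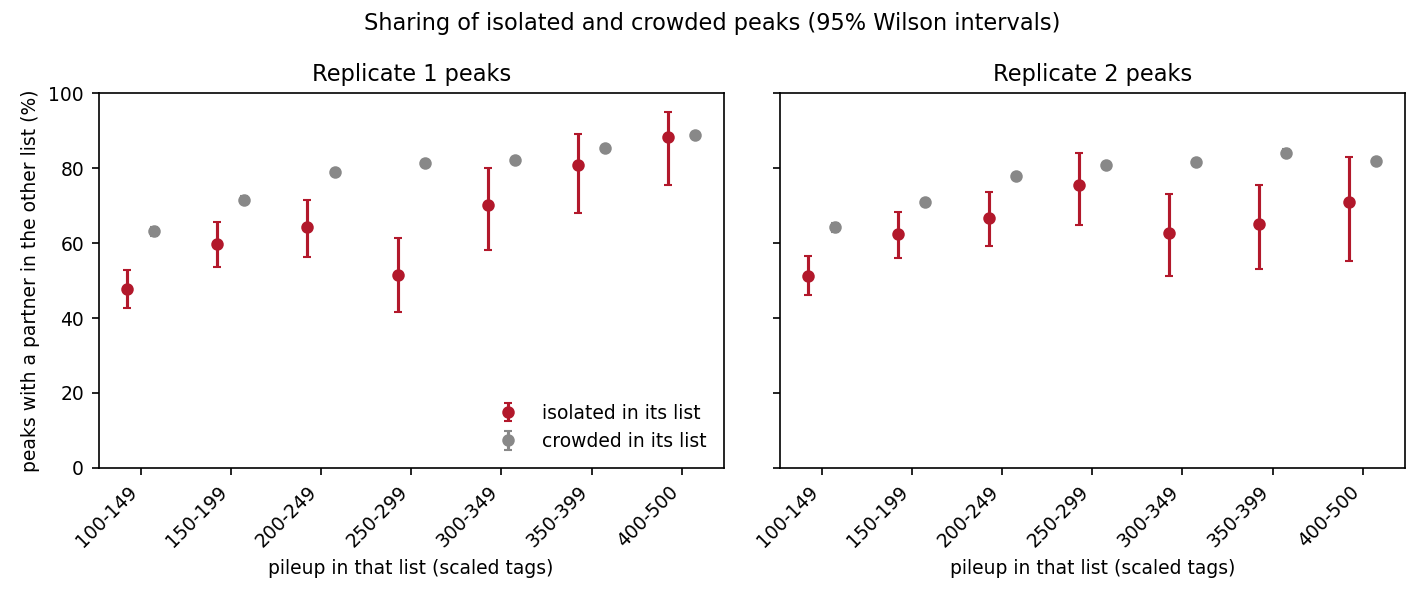
Points are the percentage of peaks of 1 list that had a partner in the other list, by band of pileup in that list, with 95% Wilson intervals. Peaks isolated in their list lie below crowded peaks in all 7 bands of both replicates, from 47.8 to 88.4% against 63.2 to 89.0% in replicate 1.

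Isolated pairs were more often 100 to 129 bp long than crowded pairs, a band set after the lengths were seen. In replicate 1, 147 isolated pairs (39.1%, Wilson interval 34.3 to 44.1%) and 23.3% of crowded pairs were of that length, and in replicate 2, 141 (37.5%, 32.8 to 42.5%) and 22.9%. Lengths of 50 to 69 bp were found at 20.7% and 24.5% of isolated pairs in replicates 1 and 2, and at 29.7% and 28.6% of crowded pairs. In both lists at once, 121 isolated pairs (32.2%) and 17.1% of crowded pairs measured 100 to 129 bp. The isolated share was the higher one in 5 of the 7 bands of pileup and the lower one in the 2 highest. Of the 121, 116 had starts within 10 bp in both lists. Their median folds were 1.77 and 1.88, against 1.74 and 1.71 at the other 255 isolated pairs. A fold of at least 2 in both lists was reached by 15 of the 121 and by 54 of the other 255, so the counts and the medians ran in opposite directions.

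**Figure D4:**
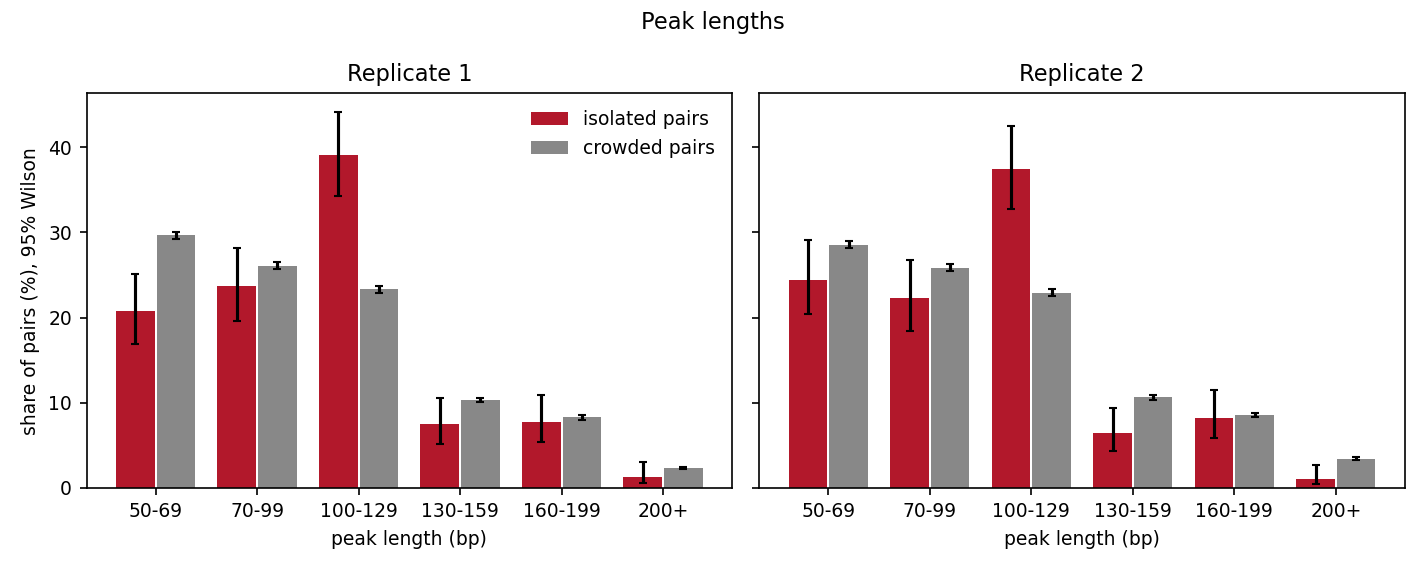
Bars are the share of isolated pairs and of crowded pairs in each band of peak length in bp, per replicate, with 95% Wilson intervals. The isolated pairs stand out at 100 to 129 bp, with 39.1% and 37.5% against 23.3% and 22.9% of crowded pairs.

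The chromosomes held 16 to 54 isolated pairs each. Chromosome 11 had the highest density, 1.41 per Mb with 41 pairs, and chromosome 6 the lowest, 0.640 per Mb with 20. As a share of all pairs within the limits, isolated pairs made up 1.18% on chromosome 11 (Wilson interval 0.868 to 1.59%), 1.12% on chromosome 2 (0.820 to 1.54%) and 1.04% on chromosome 1 (0.798 to 1.35%). They made up 0.469% on chromosome 6 (0.304 to 0.723%), 0.507% on chromosome 5 (0.341 to 0.753%) and 0.587% on chromosome 4 (0.422 to 0.815%). The intervals of chromosomes 1, 2 and 11 lay above those of chromosomes 5 and 6. All these intervals cover counting error only and peaks are not replicates, so this is no test between chromosomes. Chromosomes with neighbouring ranks overlapped in their intervals. Dense peaks leave less room for isolated ones, so the share follows crowding by construction. Of the 69 isolated pairs with a fold of at least 2 in both lists, 12 were among the 41 on chromosome 11 and 1 among the 16 on chromosome 9. The share of all shared pairs of each chromosome at that fold is not given here, so these counts show no difference between chromosomes.

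**Figure D5:**
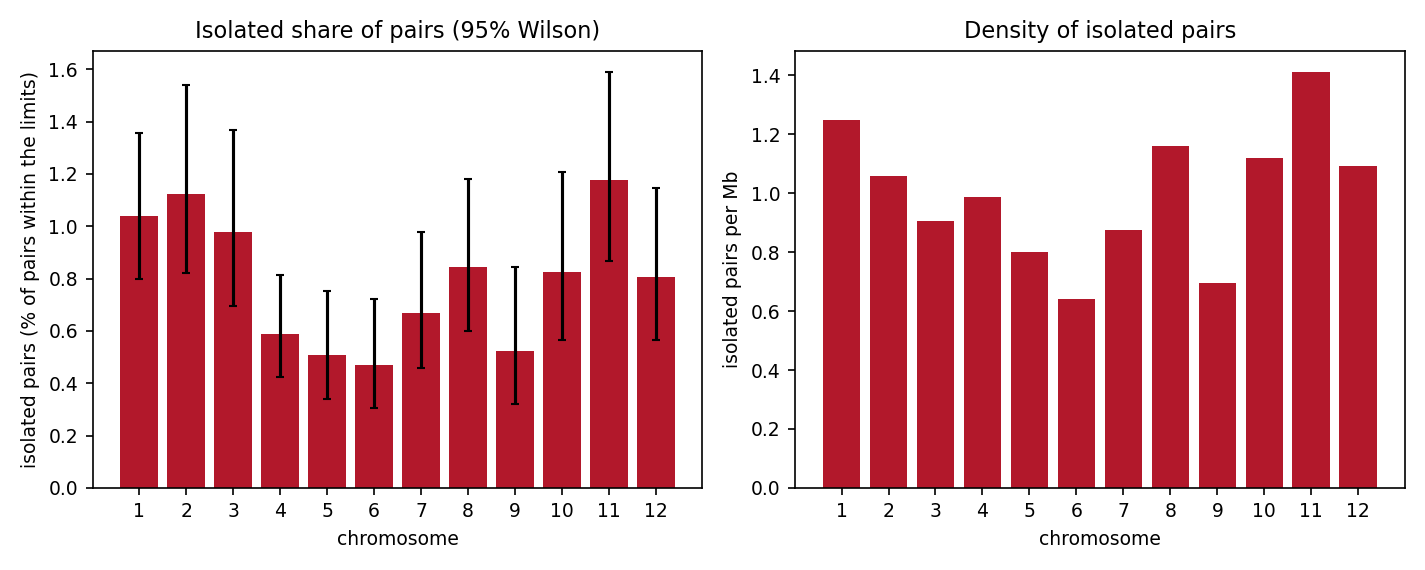
Bars are isolated pairs per chromosome, on the left as a percentage of pairs within the limits with 95% Wilson intervals, on the right per Mb of the span covered by peaks. The shares run from 0.469% on chromosome 6 to 1.18% on chromosome 11.

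Along the chromosomes, isolated pairs were found from end to end. Each chromosome was divided into 10 equal parts of its span up to the last peak, and the parts held 23 to 47 isolated pairs. The sixth part had the fewest, with 6.12% of the isolated pairs and 9.83% of the crowded pairs. The fourth part held 11.7% of the isolated and 14.4% of the crowded pairs. Consecutive isolated pairs on a chromosome were a median of 516798 bp apart, and 23 lay under 50 kb from the preceding one.

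The peak-free ground around isolated pairs varied widely. The median distance to the nearest other summit, taken as the smaller of both lists, was 18490.5 bp, and at crowded pairs it was 258 bp. It exceeded 20 kb at 168 isolated pairs, 50 kb at 28 and 100 kb at 4. Those 4 were on chromosome 2 at 1638659 (116623 bp), chromosome 8 at 19652381 (109302 bp), chromosome 8 at 493437 (107612 bp) and chromosome 2 at 33155884 (105238 bp). Next came chromosome 4 at 34532133 (99500 bp) and chromosome 3 at 29118862 (89186 bp). Folds of these 6 ranged from 1.50 and 1.34 on chromosome 4 to 3.29 and 2.58 on chromosome 3.

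Enrichment varied little with the distance. Median folds were 1.78 and 1.75 at the 135 isolated pairs with 10 to 15 kb to the nearest summit, and 1.79 and 1.81 at the 28 with over 50 kb. The backgrounds were 6.57 and 6.56 times the average from 10 to 15 kb and 6.18 and 5.94 times beyond 50 kb.

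At the other extreme were isolated pairs near the tag ceiling, which is 500 tags at a position. At least 450 tags in both lists were held by 9 isolated pairs (2.39%) and by 5.11% of crowded pairs. The most tags were on chromosome 4 at 6469578, 500 and 497 pulled-down tags over 404 and 412 input tags, at folds of 1.19 and 1.18. Next were chromosome 5 at 25082453 with 492 and 499 tags and chromosome 8 at 19946685 with 487 and 485. The chromosome 4 pair was also among the 4 with the lowest larger-of-both fold. The others were on chromosome 6 at 24251516 (1.19 and 1.18), chromosome 2 at 27923214 (1.16 and 1.19) and chromosome 11 at 3728833 (1.21 and 1.21). Their backgrounds were 18.8 to 25.8 times the average, and the −log10 q went down to 1.43.

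The pairs named next were the ends of the range of fold ratios between the lists, over all 376 isolated pairs. The 360 pairs compared above differed by less than sampling noise, at 0.507 for tags and 0.791 for input. Whether any single pair differed beyond that noise was not tested. The largest ratios of replicate 1 to replicate 2 were on chromosome 2 at 22276998 (folds 2.01 and 1.30), chromosome 11 at 5789573 (3.59 and 2.44) and chromosome 7 at 2415199 (2.18 and 1.51). On chromosome 7 the summits lay 100 bp apart, so the folds were read at different positions. The smallest were on chromosome 10 at 16682095 (2.05 and 3.61), chromosome 4 at 27365838 (1.50 and 2.38) and chromosome 8 at 28136517, given above. On chromosome 10, pulled-down tags were 172 and 198, while input tags were 80.0 and 53.0. On chromosome 4, pulled-down tags were 140 and 135 and input tags 89.0 and 55.0.

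The limits of the choice cut through continuous values. Just inside the limit on distance were chromosome 2 at 5562987 (10032 bp, folds 1.61 and 1.36), chromosome 6 at 24615818 (10033 bp, 2.10 and 1.52) and chromosome 2 at 13931413 (10062 bp, 1.85 and 1.73). Just outside were chromosome 2 at 3967709 (9975 bp, 1.27 and 1.32), chromosome 1 at 37140946 (9943 bp, 2.19 and 2.68) and chromosome 2 at 11806299 (9890 bp, 2.02 and 1.95). Just inside the limit on pileup were chromosome 5 at 21516429 (pileups 117 and 100.03), chromosome 1 at 33202592 (122 and 101) and chromosome 11 at 20556312 (109 and 101). Just outside were chromosome 7 at 15043503 (113 and 99.1), chromosome 12 at 25457086 (98.9 and 130) and chromosome 2 at 8134412 (98.9 and 106). The last of these had folds of 4.00 and 3.14 over 24.0 and 33.0 input tags, so a strongly enriched lone region was left out by the pileup limit. The widest isolated pair by its shorter length measured 196 bp in both lists, on chromosome 2 at 16308372. The nearest one left out for length measured 205 and 200 bp, on chromosome 3 at 7681031, with folds of 2.03 and 2.07.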

How the data were processed

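Reads were trimmed by cutadapt, per the submitters' processing notes. The authors called peaks in each pulled-down library over its own input using MACS2 2.2.5, per the file headers, with a q cutoff of 0.05, at most 5 tags per position and a fragment length of 50 bp. Aligner and build: not given in the sources used here. Per the file headers, larger libraries were scaled to smaller ones, so the deposited pileup is a scaled signal of tags. Fold enrichment as deposited is the ratio of pileup plus 1 to local input background plus 1, and the deposited p-values and q-values are −log10 values.

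Pileups were divided by the scale of the library (0.960 and 0.981) to give tags, which were whole within 0.02 for 100% of peaks. Input tags were recomputed from pileup and fold. Replicate 1 and 2 peaks were paired by best overlap, each used once. The pairing code was run on the replicate 1 list used as both lists, with planted regions added. It recovered 100% of 120 planted isolated pairs and called 0 of 120 planted with a neighbour at 9 kb. The planted isolated pairs met the rule by design, so this tests the code and not the sharing between the real lists. Wilson and exact Poisson intervals are at 95% and cover counting error only. The smaller-of-both fold, larger-of-both fold, distance, tags, background, ratio of folds and closeness to a limit named the regions. The members and lists were chosen with earlier results of these data known. Motif and gene comparisons were not made, since no genome of this build was used. Python 3.11.15, NumPy 2.4.6, pandas 2.3.3, SciPy 1.17.1 and matplotlib 3.10.9 were used.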

Additional observations from a re-analysis of the deposited data

How the results depend on the processing

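The count of 376 isolated pairs became 666 with a distance of 5 kb and 168 with 20 kb. It was 1018 and 1000 when replicate 1 or replicate 2 was used alone, and stayed within 1.5 times under the other alternatives. The median fold over both lists, 1.77, moved to 1.91 when only peaks with a −log10 q of at least 5 were used, and was 1.75 to 1.81 under the others. The median background, 6.41 times the average, was 5.98 with 20 kb, 5.16 with a pileup of at least 50 and 7.71 with at least 150, and 5.78 and 6.10 with replicate 1 or replicate 2 alone. The share with a fold of at least 2, 18.4%, was 23.0% with a pileup of at least 50 and 27.1% with the limit on q. It was 31.7% and 30.9% in replicate 1 or replicate 2 alone, where only 1 list has to reach the fold. The isolated minus crowded median fold, −0.0326, was near 0 and did not keep its sign. It was 0.0029 with a pileup of at least 50, 0.0158 with the limit on q, and 0.00021 and −0.0313 with replicate 1 or replicate 2 alone. Within bands of pileup, weighted by the isolated pairs, it was −0.154. That alternative, and counting equal tag numbers once (353 pairs), were chosen once the data had been seen. The causes were not tested beyond what each limit leaves in. No paired analysis was possible because each deposited list already combines a pulled-down library with its input. Depth limits which weak regions are listed at all, and the ceiling of 500 tags limits folds over high background.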
